A study of Mus musculus with 6 samples.

Results

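Classical cadherins (type I), their type II relatives and the GPI-anchored Cdh13 were followed in RNA-Seq data of mouse sciatic nerve at postnatal day 14. The genes were taken by symbol, as Cdh1, Cdh2, Cdh4, Cdh5, Cdh6, Cdh8, Cdh10, Cdh11, Cdh13 and Cdh19, and all 10 were in the count tables, which hold 11371 genes with enough reads for a test and 12644 with too few. Control mice carried floxed Rnf40 alleles (Rnf40 fl/fl) without Cre. Rnf40ΔSC mice carried the same floxed alleles and the Dhh::Cre transgene, which is active in the Schwann cell lineage, so that the other cells of the nerve kept the gene. There were 3 libraries per genotype, each from RNA of a pool of 3 nerves, and reads assigned to genes ranged from 1317167 to 2468765 per library. The labels give a mixed 129SvJ/C57Bl/6J background, whereas the methods of the study name C3H in place of 129SvJ. Levels are given as CPM, read counts relative to library size after TMM scaling, and 1 read stood for 0.414 to 0.823 CPM.

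Cadherins are calcium-dependent adhesion molecules of the cell surface, and a cadherin on 1 cell mostly binds a cadherin of the same or a related kind on its neighbour. Inside the cell, the tails of type I and type II cadherins bind beta-catenin and p120-catenin, and alpha-catenin couples them to actin in the adherens junction. In the Schwann cell lineage, Cdh2 (N-cadherin) and Cdh19 are known from precursors and immature cells, while Cdh1 (E-cadherin) joins the membrane layers of a single myelinating Schwann cell at paranodes, incisures and mesaxons. An exchange between Cdh1 and Cdh2 is called cadherin switching, and the comparison of the genotypes asked whether such a change was present in nerves lacking Rnf40 in Schwann cells.

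Rnf40, the floxed gene, had 67.5, 65.5 and 73.6 CPM in control and 46.8, 46.9 and 48.8 CPM in Rnf40ΔSC libraries. Every Rnf40ΔSC library lay below every control library, with a log2 change between the genotypes of -0.54 (standard error, SE, 0.14, edgeR adjusted p = 0.00242). The counts cover the whole gene, including exons outside the deleted part, and the whole nerve, including cells without Cre. Scaled by the total of each library and without TMM, Rnf40 changed by -0.27 (adjusted p = 0.12). Its partner in the E3 ligase, Rnf20, was higher, by 0.44 on the log2 scale (adjusted p = 0.00998), which was past 0.05 neither without control replicate 3 (adjusted p = 0.087) nor without Rnf40ΔSC replicate 1 (adjusted p = 0.057).

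Of the 10 cadherin genes, 4 were higher in Rnf40ΔSC nerves (Cdh4, Cdh6, Cdh8 and Cdh10), 5 were lower (Cdh1, Cdh5, Cdh11, Cdh13 and Cdh19), and Cdh2 did not pass an adjusted p of 0.05 in edgeR's quasi-likelihood test. Among all 11371 genes tested, 31.6% passed this threshold, 15.4% as higher and 16.2% as lower genes. The study also required a log2 change of 0.8 or more in either direction and a base mean of 20 or more. The base mean is the average scaled count over the 6 libraries. The study's limit on p was 0.05 with DESeq2, and it does not say there whether p was adjusted. Here its limits on change and base mean were applied together with the adjusted p from edgeR. Under these limits the cadherins counted 3 higher and 2 lower genes, and the background was 3.65% and 4.99%. Scaled by library totals without TMM, Cdh13 changed by -0.66 and no longer met the limit of 0.8. Among all genes, 1008 higher and 261 lower ones then met the limits, against 415 and 567 under TMM. All 10 genes passed the filter on low counts, but Cdh4, Cdh6 and Cdh8 did so only through the Rnf40ΔSC libraries, so that the count of higher genes is a description. Regardless of sign, the median log2 change was 1.07 over the 10 cadherins and 0.32 over all genes tested. Restricted to genes at the filter's level in all 6 libraries, a limit chosen after seeing the data, it was 0.64 over the 7 other cadherins and 0.30 over all such genes. In TMM-scaled CPM, the groups of 3 libraries did not overlap for any of the 10 genes, Cdh2 included. They did not overlap for 43.5% of all genes tested. Scaled by library totals without TMM, the groups overlapped for Cdh2 and for Cdh5.

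**Figure D1:**
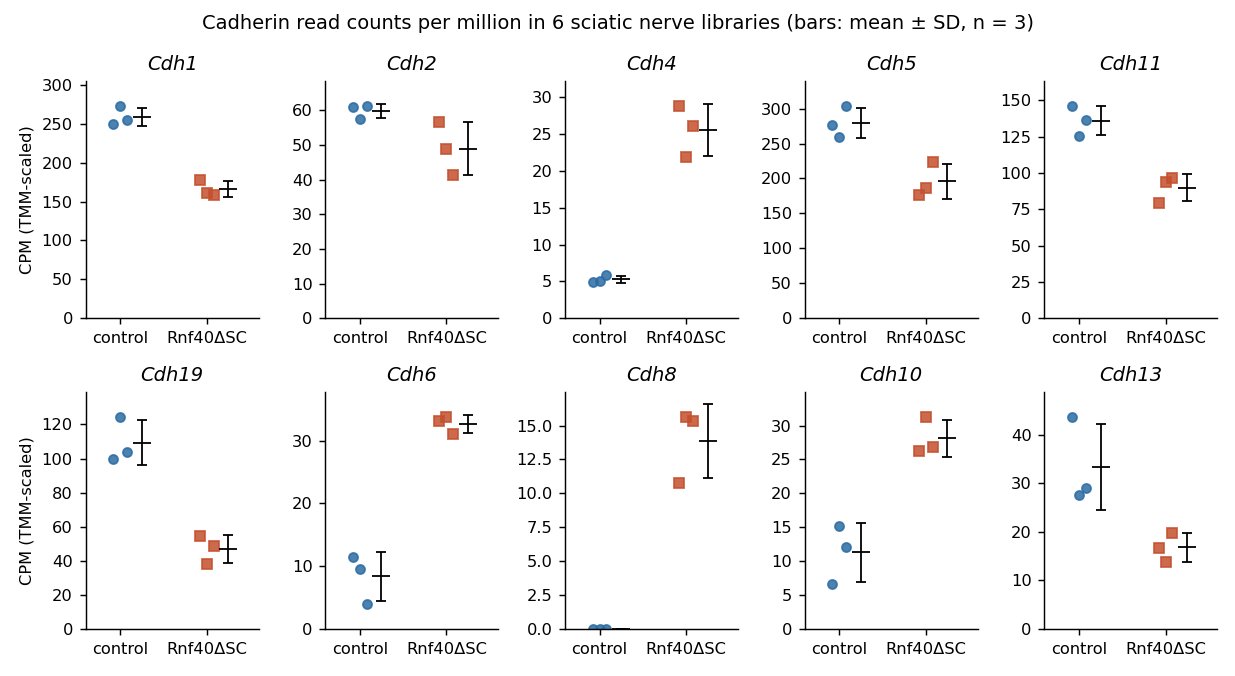
Level of each of the 10 cadherin genes in CPM (TMM-scaled, vertical axes from 0, a separate scale per gene) in the 3 control libraries (blue circles) and the 3 Rnf40ΔSC libraries (red squares), with the mean and SD as black bars. Cdh4, Cdh6, Cdh8 and Cdh10 lie higher in all 3 Rnf40ΔSC libraries, and the other 6 genes lie lower, with Cdh2 the closest between the groups.

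RefSeq promoter entries (GRCm38.p6, a later build than the mm9 used for the counts) were found for 3 of the 10 genes, Cdh6, Cdh8 and Cdh10, and these 3 are shown. From each, the 250 bases before the annotated start are printed 5′ to 3′ on the strand of the gene. Capitals mark a match to a motif. The Cdh6 sequence lies at chr15:13173676-13173925 on the minus strand and holds 51.2% G and C. The Cdh8 sequence lies at chr8:99416472-99416721 on the minus strand (64.4% G and C), and the Cdh10 sequence at chr15:18820079-18820328 on the plus strand (36.8% G and C).
Cdh6: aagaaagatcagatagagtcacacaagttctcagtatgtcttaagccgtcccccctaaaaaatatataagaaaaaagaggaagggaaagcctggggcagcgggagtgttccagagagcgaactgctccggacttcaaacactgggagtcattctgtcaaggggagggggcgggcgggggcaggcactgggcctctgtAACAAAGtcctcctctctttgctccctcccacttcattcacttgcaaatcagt
Cdh8: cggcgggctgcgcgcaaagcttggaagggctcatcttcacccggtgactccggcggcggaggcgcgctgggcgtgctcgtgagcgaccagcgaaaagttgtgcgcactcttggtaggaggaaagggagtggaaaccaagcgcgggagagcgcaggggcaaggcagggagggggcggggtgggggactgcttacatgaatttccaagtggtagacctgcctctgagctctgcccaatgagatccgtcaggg
Cdh10: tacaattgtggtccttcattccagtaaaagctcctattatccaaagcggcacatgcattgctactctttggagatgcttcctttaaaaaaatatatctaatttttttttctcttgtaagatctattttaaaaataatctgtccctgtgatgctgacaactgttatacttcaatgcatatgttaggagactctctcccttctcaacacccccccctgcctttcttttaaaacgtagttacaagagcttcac

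Motifs of transcription factor families that act in Schwann cells or on cadherin genes were searched on both strands. The SOX family was represented by AACAAAG as well as by AACAATG, which differ in a single letter, the POU octamer by ATGCAAAT, the EGR family by GCGNGGGCG, and the E-box bound by SNAI and ZEB repressors by CACCTG. The Cdh6 sequence held 1 SOX match, starting 53 bases before the annotated start, and no base of it belonged to another of the motifs. Neither Cdh8 nor Cdh10 held any of these letters in the 250 bases. Among all 32851 promoter entries, 8.12% held a SOX match in the same window, 1.6% the octamer, 4.7% the EGR motif and 17.2% the E-box.

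Cdh1, the epithelial E-cadherin that myelinating Schwann cells use within their own membrane, had 249, 272 and 255 CPM in control and 178, 161 and 159 CPM in Rnf40ΔSC libraries. The Rnf40ΔSC libraries lay close together and well below the controls. Cdh1 was lower by this measure in 3 of 3 libraries, at a log2 change of -0.64 (SE 0.10, edgeR adjusted p = 1.46e-06). As bulk RNA of whole nerve was measured, fewer cells of a type and less RNA per cell cannot be told apart, here and for every gene that follows. Of 9 epithelial markers none had enough reads for a test, Krt8 and Cldn4 had 0 reads in all 6 libraries, Epcam had 1 read in a single library, and the summed level of the list was 4.12, 4.52 and 7.14 CPM in control and 4.29, 8.12 and 5.38 CPM in Rnf40ΔSC libraries. Esrp1, a splicing factor, was the highest of the 9 markers per kb of exon in the mean of both genotypes, with between 4 and 12 reads per library.

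Cdh2, the N-cadherin of early Schwann cells, nerve fibroblasts and muscle, had 60.9, 57.6 and 61.1 CPM in control and 56.7, 48.7 and 41.4 CPM in Rnf40ΔSC libraries. The groups did not overlap under TMM scaling but did by library totals. Under TMM, the gap between the lowest control and the highest Rnf40ΔSC library was smaller than the spread among the Rnf40ΔSC libraries. Cdh2 changed by -0.29 on the log2 scale, with a 95% confidence interval from -0.59 to 0.01 (edgeR adjusted p = 0.133), and by -0.02 when libraries were scaled by total counts. A fall by more than 0.59 on the log2 scale and a rise by more than 0.01 both lay outside the interval under TMM scaling.

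The ratio of Cdh2 to Cdh1 reads within a library does not depend on how libraries are scaled. It was 0.244, 0.212 and 0.240 in control and 0.319, 0.304 and 0.260 in Rnf40ΔSC libraries. All Rnf40ΔSC libraries were above all controls, with replicate 3 of Rnf40ΔSC nearest to them. On the log2 scale, with 0.5 added to each count, the mean ratio was -2.11 ± 0.11 in control and -1.76 ± 0.15 in Rnf40ΔSC nerves (mean ± SD, n = 3 each). The difference was 0.34, a 1.27-fold higher ratio (exact two-sided permutation test, p = 0.1, and no smaller p is possible with 3 libraries against 3). The higher ratio thus came with a fall of Cdh1, and no rise of Cdh2 was measured. Cdh1 remained the more abundant of the 2 genes in Rnf40ΔSC nerves, at 36.2 ± 2.28 CPM per kb of exon against 6.07 ± 0.948 for Cdh2 (SD, n = 3).

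Cdh4, the R-cadherin first described in retina, is the third type I gene of the 10. It had 4.94, 5.09 and 5.80 CPM in control and 28.8, 21.9 and 26.1 CPM in Rnf40ΔSC libraries. These levels rest on 6, 9 and 13 reads in control and 67, 35 and 63 in Rnf40ΔSC libraries. Every Rnf40ΔSC library was several times above every control. The change was 2.26 on the log2 scale (SE 0.28, edgeR adjusted p = 3.86e-08). Cdh4 was in the test only through the Rnf40ΔSC libraries, so this call is a description. Per kb of exon, Cdh4 stood at 0.731 ± 0.0640 CPM in control and 3.54 ± 0.481 CPM in Rnf40ΔSC nerves (SD, n = 3), in the latter nearer to Cdh2 than in controls. Cdh4 shares 31 exon bases with Gm10711 on the same strand, which leaves the origin of reads in that stretch uncertain.

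Among type II genes, Cdh19, a cadherin known mainly from the Schwann cell lineage, had 99.6, 124 and 104 CPM in control and 54.5, 38.1 and 48.4 CPM in Rnf40ΔSC libraries. Its Rnf40ΔSC values were all far below the control values, without overlap. Cdh19 fell by 1.20 on the log2 scale (SE 0.14, edgeR adjusted p = 4.91e-09), the strongest fall among the 10 cadherins on the fitted scale. Sox10, the transcription factor that marks the lineage, fell by 0.79 (SE 0.09, adjusted p = 8.8e-09), and the difference between the falls was not tested.

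Other markers of the Schwann cell lineage moved in both directions. Foxd3 and Egr2, transcription factors of the lineage, rose by 0.90 (edgeR adjusted p = 4.6e-05) and 0.36 (adjusted p = 0.00579) on the log2 scale, the latter not past the threshold without control replicate 3 (adjusted p = 0.0873). The calcium-binding protein S100b fell by 0.89 (adjusted p = 3e-09), and the receptor Gfra3 had 25, 19 and 13 reads in control and 1, 0 and 1 in Rnf40ΔSC libraries. Ratios to Sox10 within a library, chosen after the values were seen and therefore given without a test, show how the cadherins stood against this marker. The ratio of Cdh1 to Sox10 reads was 0.502, 0.498 and 0.454 in control and 0.545, 0.540 and 0.518 in Rnf40ΔSC libraries. That of Cdh2 was 0.123, 0.105 and 0.109 in control and 0.174, 0.164 and 0.135 in Rnf40ΔSC libraries. Both ratios were somewhat higher in each Rnf40ΔSC library than in any control. The ratio of Cdh19 to Sox10 reads was 0.201, 0.227 and 0.185 in control and 0.167, 0.128 and 0.158 in Rnf40ΔSC libraries, lower in each Rnf40ΔSC library. Sox10 itself changed between the groups, and the part of cell number in these results was not tested.

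**Figure D2:**
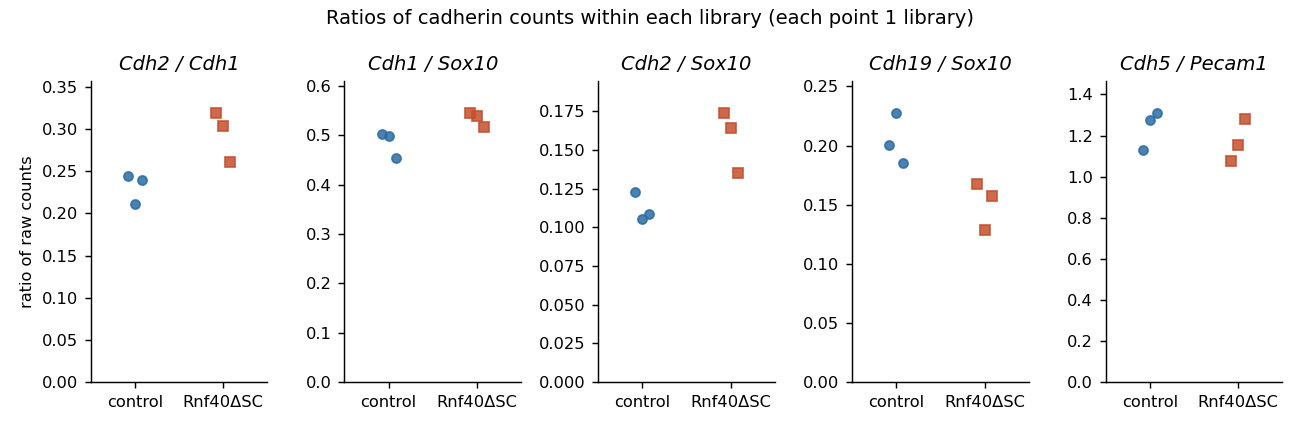
Ratio of raw counts of 2 genes within each library, for Cdh2 to Cdh1, for Cdh1, Cdh2 and Cdh19 to the Schwann cell marker Sox10, and for Cdh5 to the endothelial marker Pecam1, in 3 control (blue circles) and 3 Rnf40ΔSC libraries (red squares). All vertical axes start at 0, and the groups overlap for Cdh5 to Pecam1 alone.

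Cdh5 (VE-cadherin), the cadherin of endothelial adherens junctions, had 276, 259 and 303 CPM in control and 177, 187 and 224 CPM in Rnf40ΔSC libraries. Replicate 3 was the highest library in each genotype, and the groups did not overlap under TMM scaling but did by library totals. Cdh5 fell by 0.51 on the log2 scale (SE 0.10, edgeR adjusted p = 0.000119), but with total-count scaling it fell by 0.24, which was not past the threshold (adjusted p = 0.0598). Of 13 endothelial markers, 6 were lower and 7 did not pass, with none at 0 and a fitted change below 0 for all 13 under TMM. By DESeq2 3 of the 13 were lower, and with total-count scaling 1, which was Cldn5. Their summed level was 755, 648 and 730.2 CPM in control and 519, 481 and 569 CPM in Rnf40ΔSC libraries, and Pecam1, an adhesion molecule of the vessel wall, was the highest of them per kb. Pecam1 fell by 0.44 (edgeR adjusted p = 0.000646), or by 0.17 (adjusted p = 0.188) with total-count scaling. Among the 6, the largest change was that of Cldn5, a tight junction protein of barrier vessels, at -1.12 (adjusted p = 0.00181). The ratio of Cdh5 to Pecam1 reads was 1.13, 1.27 and 1.31 in control and 1.08, 1.15 and 1.28 in Rnf40ΔSC libraries, with the groups overlapping. The part of endothelial RNA content in the fall of Cdh5 was not tested.

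Cdh11 (OB-cadherin) is typical of mesenchymal cells and had 146, 125 and 137 CPM in control and 79.0, 93.7 and 96.4 CPM in Rnf40ΔSC libraries. The Rnf40ΔSC libraries were all lower, with replicate 1 the lowest. Cdh11 fell by 0.60 on the log2 scale (SE 0.11, edgeR adjusted p = 6.28e-05). Fibroblast markers moved in the same direction, with 7 of 9 lower, 2 not past the threshold and none at 0, a summed level of 42196, 41272 and 44526 CPM in control and 32496, 31377 and 30925 CPM in Rnf40ΔSC libraries, and Col3a1, a fibrillar collagen, as the highest per kb. Col3a1 fell by 0.49 (edgeR adjusted p = 5.3e-08) and Pi16, a marker of adventitial fibroblasts, by 0.90 (adjusted p = 6.88e-07). With total-count scaling 4 fibroblast markers were lower and 1 was higher. Their part in the fall of Cdh11 was not tested.

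Cdh6, Cdh8 and Cdh10, whose promoter sequences are printed above, are type II cadherins best known from neural tissue, where they differ between groups of neurons, and Cdh6 also from kidney and neural crest. Cdh8 had 0 reads in all 3 controls and 25, 25 and 37 reads in Rnf40ΔSC libraries, which correspond to 10.7, 15.6 and 15.3 CPM. It was thus undetected in control nerves at this depth and present in every Rnf40ΔSC library. Set against the limit that a count of 0 allows, 3 reads per control library or 1.83 CPM on average, Cdh8 was at least 7.57-fold higher in Rnf40ΔSC nerves (edgeR adjusted p = 3.06e-09). This limit covers counting error only. Cdh8 was in the test only through the Rnf40ΔSC libraries, so its call is a description. With a base mean of 13.02, Cdh8 lay below the study's limit on abundance. In the annotation, 23 of its exon bases overlap Gm15679 on the opposite strand.

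Cdh6 had 11.5, 9.61 and 4.02 CPM in control and 33.1, 33.7 and 31.0 CPM in Rnf40ΔSC libraries, from 9 to 17 reads per control library and from 54 to 77 reads per Rnf40ΔSC library. The 3 Rnf40ΔSC libraries agreed closely, while the controls spread more widely. Cdh6 rose by 2.05 on the log2 scale (SE 0.26, edgeR adjusted p = 9.51e-08). Cdh10 had 6.59, 15.3 and 12.1 CPM in control and 26.2, 31.2 and 26.9 CPM in Rnf40ΔSC libraries, a rise by 1.24 (SE 0.24, adjusted p = 0.000109). Its lowest control had 8 reads against 27 in each of the others, and all Rnf40ΔSC libraries were above the highest control. The rises of Cdh4, Cdh6, Cdh8 and Cdh10 passed the threshold when any 1 of the 6 libraries was left out. Cdh4, Cdh6 and Cdh8 were in the test only through the Rnf40ΔSC libraries, so for them this is a description.

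Markers of immature or promyelinating Schwann cells moved beside these 4 genes, with 4 of 8 higher (5 with total-count scaling), 2 lower and 2 not past the threshold, none at 0, and a summed level of 777, 808 and 750.3 CPM in control and 1497, 1862 and 1498 CPM in Rnf40ΔSC libraries. Pou3f2, highest per kb in the mean of both genotypes among those with an annotated length, rose by 1.82 on the log2 scale (edgeR adjusted p = 2.53e-14). Pou3f1 (Oct6), the transcription factor of the promyelinating stage, rose by 2.05 (adjusted p = 9.27e-12), and Sox2, a factor of immature cells, by 1.96 (adjusted p = 1.53e-08). In contrast, the adhesion molecule L1cam fell by 1.87 (adjusted p = 7.64e-14). Neuronal markers gave fewer reads: 4 of 9 could be tested, 1 was higher and 3 did not pass, none was at 0 in all 6 libraries, and their summed level was 62.6, 57.1 and 42.4 CPM in control and 75.1, 53.7 and 56.7 CPM in Rnf40ΔSC libraries. The neuronal marker past the threshold was Snap25, a protein of vesicle release, which rose by 1.496 on the log2 scale (adjusted p = 0.00375) but had passed the filter only through the Rnf40ΔSC libraries, with 3, 6 and 8 reads in control and 23, 13 and 23 in Rnf40ΔSC libraries. Uchl1, a deubiquitinase abundant in neurons, was the highest per kb. The part of either marker group in the rise of the 4 cadherins was not tested.

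Cdh13 (T-cadherin) lacks the catenin-binding tail, is held in the membrane by a GPI anchor and binds adiponectin on vessels and muscle. It had 43.6, 27.7 and 29.0 CPM in control and 16.7, 13.7 and 19.9 CPM in Rnf40ΔSC libraries. Control replicate 1 stood above the other controls, and all Rnf40ΔSC libraries lay below them. Cdh13 fell by 0.93 on the log2 scale (SE 0.22, edgeR adjusted p = 0.000965). Of 10 markers of pericytes and smooth muscle, 6 were lower (4 with total-count scaling), 4 did not pass and none was at 0. Their summed level was 1364, 1054 and 1170.3 CPM in control and 714, 692 and 932 CPM in Rnf40ΔSC libraries, with the smooth muscle actin Acta2 highest per kb (log2 change -0.48, edgeR adjusted p = 0.422). The receptor Pdgfrb fell by 0.65 (adjusted p = 3.39e-06), and the part of these cells in the fall of Cdh13 was not tested.

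Markers of skeletal muscle differed between libraries within the Rnf40ΔSC group. The summed level of 15 markers was 4159.7, 3042 and 2319 CPM in control and 85.0, 206 and 2846 CPM in Rnf40ΔSC libraries, so that replicates 1 and 2 of Rnf40ΔSC were low and replicate 3 was in the range of the controls. None of the 11 markers tested passed the threshold in edgeR or in DESeq2, and none had an unadjusted p under 0.05 in edgeR. Acta1, the actin of muscle fibres, was highest of the list per kb, and Myh3, Myod1, Myog and Pax7 had 0 reads in replicates 1 and 2 of Rnf40ΔSC. When Rnf40ΔSC replicate 3 was left out, Acta1 changed by -4.10 on the log2 scale (edgeR adjusted p = 0.0233), against -1.18 (adjusted p = 0.597) with all libraries. The cadherin of muscle, Cdh15, had at most 1 read in any library. Without Rnf40ΔSC replicate 3, Cdh1 changed by -0.60, Cdh2 by -0.16, Cdh13 by -1.05 and Cdh4 by 2.26, and no call of the 10 cadherins changed.

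Scaling mattered for the lower genes. Total-count scaling moved the median log2 change of all genes up by 0.27, and 81.1% of the genes past the threshold were then higher, compared with 48.8% under TMM. The fall became -0.38 for Cdh1 (adjusted p = 0.00169), -0.33 for Cdh11 (adjusted p = 0.0225), -0.93 for Cdh19 (adjusted p = 1.03e-06) and -0.66 for Cdh13 (adjusted p = 0.0155). All of these kept their direction and stayed past the threshold, as did the 4 higher genes, and Cdh5 was the exception described above.

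**Figure D3:**
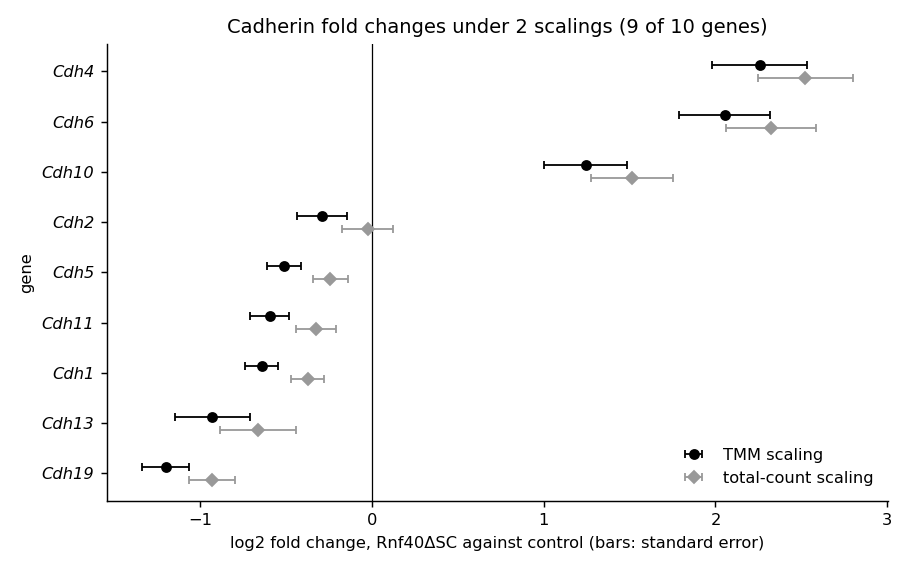
Log2 fold change between Rnf40ΔSC and control nerves for 9 cadherin genes, with standard errors as bars, under TMM scaling (black circles) and total-count scaling (grey diamonds). Cdh8 is left out because a fold against 0 reads is only a lower limit. Total-count scaling moves every gene to the right, and no gene crosses 0.

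Per kb of exon, the order of levels in control nerves was led by Cdh5 (70.1 ± 5.54 CPM per kb, SD, n = 3) and Cdh1 (56.6 ± 2.60). They were followed by Cdh19 (35.8 ± 4.31) and Cdh11 (32.2 ± 2.41), which did not differ beyond their spread, and then by Cdh2 (7.43 ± 0.244). Cdh6 (3.19 ± 1.48), Cdh10 (3.19 ± 1.24) and Cdh13 (3.00 ± 0.794) lay together at a low level, above Cdh4 and the undetected Cdh8. In Rnf40ΔSC nerves Cdh5 (49.1 ± 6.21) and Cdh1 (36.2 ± 2.28) still led, and Cdh11 (21.3 ± 2.22) now stood above Cdh19 (15.4 ± 2.71), whose range overlapped that of Cdh6 (12.4 ± 0.536). Cdh10 (7.93 ± 0.773) followed, then Cdh2 and Cdh4, and Cdh8 (1.79 ± 0.354) and Cdh13 (1.51 ± 0.274) were lowest and overlapped. The annotation used for counting is not named in the sources used here, so the lengths, from GENCODE vM1, are an approximation. With the longest transcript in place of all exons, Cdh2 stood at 12.4 and 10.1 CPM per kb in control and Rnf40ΔSC nerves, Cdh13 at 7.33 and 3.68, and Cdh8 at 3.02 in Rnf40ΔSC nerves. On that scale Cdh13 lay above Cdh6 and Cdh10 in controls, and Cdh2 and Cdh10 overlapped in Rnf40ΔSC nerves.

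Summed over the 10 genes, the level was 209, 213 and 214 CPM per kb in control and 154, 151 and 161 in Rnf40ΔSC libraries. The cadherin total was therefore lower in each Rnf40ΔSC library, while its make-up shifted. Cdh4, Cdh6, Cdh8 and Cdh10 together held 3.31%, 4.06% and 2.67% of the summed reads per kb in controls and 16.5%, 17.7% and 15.5% in Rnf40ΔSC libraries. These 4 genes were grouped after their values were seen, so the difference is a description. The share of Cdh19 went from 16.9% ± 1.93 (SD, n = 3) to 9.91% ± 1.67, and that of Cdh1 from 26.7% ± 1.07 to 23.4% ± 1.89. The share of Cdh2 was 3.50% ± 0.134 in control and 3.92% ± 0.702 in Rnf40ΔSC nerves and overlapped between the groups (with the longest transcript, 5.53% and 6.15%). Cdh1, Cdh2 and Cdh4, the type I genes among the 10, made up 30.5% ± 0.927 in control and 29.6% ± 2.77 in Rnf40ΔSC nerves. This difference was within the spread, and the type I gene Cdh3 is not part of the sum.

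**Figure D4:**
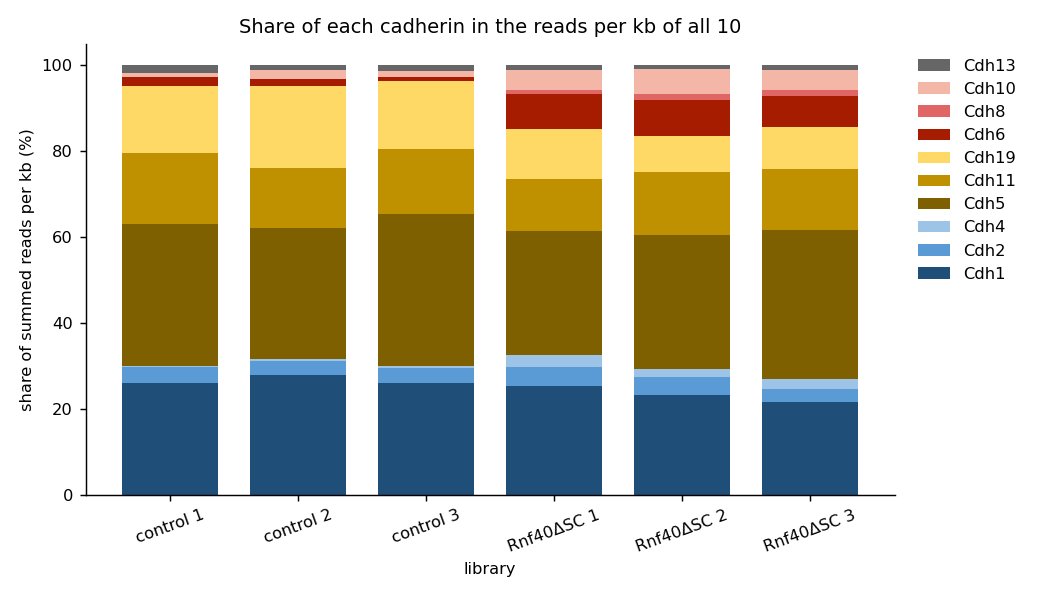
Share of each cadherin in the reads per kb of exon summed over the 10 genes, in percent, 1 stacked bar per library. The red segments (Cdh6, Cdh8 and Cdh10) and the pale blue segment (Cdh4) widen in all 3 Rnf40ΔSC libraries, and the yellow segment of Cdh19 narrows.

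In position, 5 of the 10 genes lie on chromosome 8 of mm9, which holds Cdh8 (chr8:101548371-101940371, minus strand), Cdh11 (chr8:105156895-105309011, minus strand), Cdh5 (chr8:106625525-106668402, plus strand), Cdh1 (chr8:109127251-109194146, plus strand) and Cdh13 (chr8:120807633-121848821, plus strand). Cdh8 rose, and the other 4, which follow it in this order, fell. The pair on chromosome 15, Cdh6 (chr15:12963955-13103394, minus strand) and Cdh10 (chr15:18748702-18943990, plus strand), was higher in both cases. Cdh4 lies on chromosome 2 (chr2:179177136-179634078, plus strand), Cdh19 on chromosome 1 (chr1:112785772-112873949, minus strand) and Cdh2 on chromosome 18 (chr18:16747386-16967755, minus strand).

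Of the other 9 type I and type II cadherins, 2 could be tested, and 1 was higher and 1 lower. Cdh3 (P-cadherin), which precedes Cdh1 on the same strand of chromosome 8 (chr8:109034791-109080808, plus strand), had 47, 65 and 86 reads in control and 28, 16 and 48 in Rnf40ΔSC libraries, a fall by 1.40 on the log2 scale (SE 0.22, edgeR adjusted p = 3.68e-06). It was also the highest of the 9 genes per kb in the mean of both genotypes. Cdh20, a type II gene on chromosome 1 like Cdh19 (chr1:106665106-106892058, plus strand), had 5.76, 6.78 and 4.46 CPM in control and 18.0, 18.1 and 14.9 CPM in Rnf40ΔSC libraries and rose by 1.59 on the log2 scale (adjusted p = 0.000128), and it passed the filter only through the Rnf40ΔSC libraries. Among those not tested, Cdh9 had 1, 0 and 0 reads in control and 9, 2 and 7 in Rnf40ΔSC libraries, too few for a fold. Cdh24 had at most 9 reads per library, Cdh15 at most 1, and Cdh7, Cdh12, Cdh18 and Cdh22 had 0 reads in all 6 libraries.

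Catenins couple cadherins to the cytoskeleton, and of 11 genes in this group 2 were higher (3 with total-count scaling), 4 were lower, 3 did not pass and 2 were not tested. Ctnna1 (alpha-E-catenin), the highest of them per kb, had 532, 602 and 568 CPM in control and 881, 789 and 846 CPM in Rnf40ΔSC libraries and rose by 0.56 on the log2 scale (SE 0.09, edgeR adjusted p = 2.13e-06). Ctnnb1 (beta-catenin) rose by 0.36 (adjusted p = 0.00123). Ctnnd1 (p120-catenin) had overlapping groups and changed by 0.08 (adjusted p = 0.533), or by 0.35 with total-count scaling, which was past the threshold (adjusted p = 0.00278). Ctnna3 (alpha-T-catenin) had 39.5, 46.3 and 50.9 CPM in control and 16.3, 11.9 and 20.7 CPM in Rnf40ΔSC libraries, a fall by 1.46 (SE 0.20, adjusted p = 3.12e-07). The group thus moved in both directions, with the ubiquitous alpha-catenin higher and the alpha-T form lower. Jup (plakoglobin), which can replace beta-catenin in junctions, fell by 0.75 (adjusted p = 0.000143), Pkp4 (p0071), a relative of p120-catenin, fell by 0.80 (adjusted p = 0.000453), and Ctnnal1 (alpha-catulin) fell by 0.76 (adjusted p = 3.68e-08), all on the log2 scale.

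Of 13 actin and nectin partners of adherens junctions, 2 were higher, 6 were lower, 4 did not pass and 1 was not tested, and with total-count scaling 4 were higher and 2 lower. Mllt4 (afadin), which ties nectins to actin, fell by 0.78 on the log2 scale (edgeR adjusted p = 0.000168), and its partner Pvrl1 (nectin-1) by 0.73 (adjusted p = 0.0025). Pvrl3 (nectin-3) fell by 0.71 (adjusted p = 0.00471), a call that ended with total-count scaling (adjusted p = 0.0727) and without Rnf40ΔSC replicate 1 (adjusted p = 0.052). In the other direction, the scaffold Tjp1 (ZO-1) rose by 0.47 (adjusted p = 0.000122). The highest gene of this group per kb in the mean of both genotypes, the actin cross-linker Actn4, changed by -0.03 (adjusted p = 0.837), and by 0.24 in the other direction with total-count scaling (adjusted p = 0.039).

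**Figure D5:**
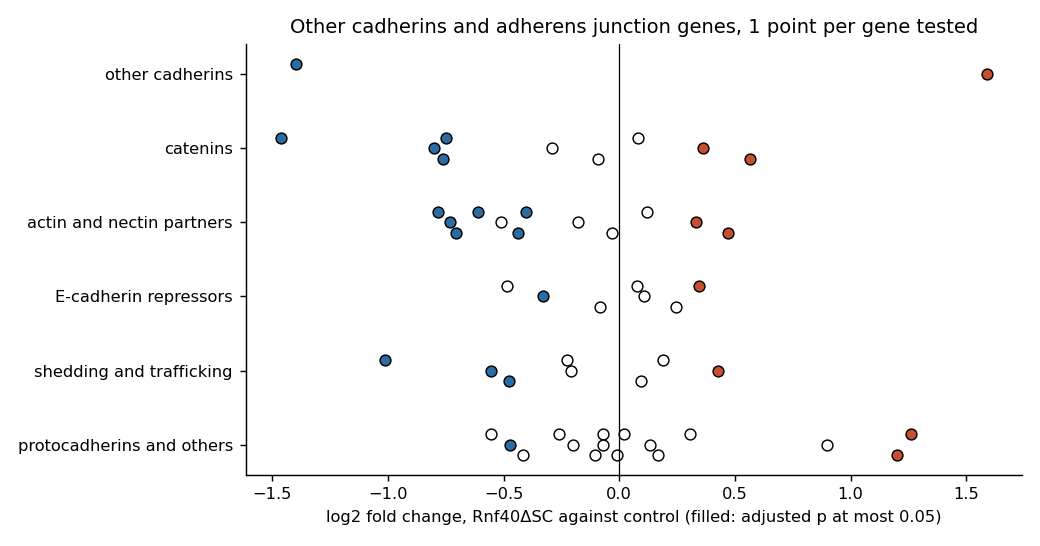
Log2 fold change between Rnf40ΔSC and control nerves for each tested gene of 6 groups: other type I and II cadherins, catenins, actin and nectin partners, repressors of E-cadherin, shedding and trafficking factors, and protocadherins with other cadherin relatives. Red and blue points passed an adjusted p of 0.05 as higher and lower genes, white points did not, and vertical offsets only separate points. Every group has points on both sides of 0.

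Of 8 repressors of the Cdh1 gene, 1 was higher, 1 was lower, 5 did not pass and 1 was not tested (with total-count scaling 2 higher and 0 lower). Zeb2, which is required for myelination and was the highest of them per kb, had 607, 621 and 619 CPM in control and 489, 521 and 460.1 CPM in Rnf40ΔSC libraries. It fell by 0.33 on the log2 scale (edgeR adjusted p = 0.00297), and with total-count scaling it changed by -0.06 (adjusted p = 0.595). Zeb1 rose by 0.34 (adjusted p = 0.0111), and without control replicate 3 by 0.28 (adjusted p = 0.105), no longer past the threshold. Snai1, with 12, 10 and 20 reads in control and 18, 12 and 6 in Rnf40ΔSC libraries, and Snai2, with 16, 14 and 14 reads in control and 26, 14 and 19 in Rnf40ΔSC libraries, were too low for a firm estimate. On the log2 scale they changed by -0.49 with a 95% confidence interval from -1.30 to 0.33 and by 0.11 with an interval from -0.59 to 0.80.

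Among 9 factors of cadherin shedding and trafficking, 1 was higher, 3 were lower, 4 did not pass and 1 was not tested (with total-count scaling 3 higher and 2 lower). Adam10, the protease that sheds the outer part of Cdh1 and Cdh2, was the highest of them per kb and had 1224, 1307 and 1202 CPM in control and 622, 669 and 559 CPM in Rnf40ΔSC libraries. All Rnf40ΔSC libraries were far below the controls, with little spread. Adam10 fell by 1.015 on the log2 scale (SE 0.08, edgeR adjusted p = 3.11e-12), and by 0.75 with total-count scaling. Mmp14, a membrane-bound metalloprotease, fell by 0.55 (adjusted p = 4.28e-05), or 0.29 with total-count scaling, and Cbll1 (Hakai), a ubiquitin ligase that acts on E-cadherin, rose by 0.43 (adjusted p = 0.00645). Adam9 fell by 0.48 (adjusted p = 0.000848), which was not past the threshold with total-count scaling (adjusted p = 0.137).

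Genes with the most similar profile over the 6 libraries were looked up for Cdh1, Cdh2 and Cdh19, by Pearson's r of log2 CPM and without a test, since the 6 libraries share the difference between genotypes. For Cdh1 these were Ak5 (r = 0.999), Shc4 (r = 0.999) and Etnk1 (r = 0.998). For Cdh19 they were Shisa4 (r = 0.999), Rasgef1c (r = 0.998) and Kdelr3 (r = 0.997), and for Cdh2 Vipas39 (r = 0.992), Dusp14 (r = 0.990) and Zkscan1 (r = 0.988). All 9 genes had fitted log2 changes below 0, as did Cdh1, Cdh2 and Cdh19. As the genes were picked for following these profiles, the shared direction is a description. The size differed, from -0.13 for Zkscan1 to -2.72 for Rasgef1c.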

How the data were processed

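RNA-Seq counts of 6 libraries of sciatic nerve at postnatal day 14 were used, 3 per genotype, grouped by the sample labels. The methods of the study name TopHat for the alignment to mm9 and HTSeq for the counting, while the labels list Bowtie2 and both mm9 and mm10. What the authors deposited are unscaled read counts for each gene symbol, taken from uniquely mapping reads. Entries without a gene name numbered 0. Annotation and strand setting of the counting are not given in the sources used here, and the labels and the methods name different library kits, so that reads of overlapping genes are uncertain.

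Counts were analysed in R 4.3.3 with edgeR 4.0.16 (filterByExpr, TMM, robust quasi-likelihood test of a model with a single genotype term, Benjamini-Hochberg adjustment over 11371 genes). Standard errors were derived from the F statistic. Cdh2 to Cdh1 ratios were tested by exact permutation. Exon lengths and coordinates came from GENCODE vM1 (mm9), promoters from RefSeq (GRCm38.p6). Alternatives were RLE and total-count scaling, DESeq2 1.42.0, no filter, 10 or more counts required throughout, a replicate block, leaving out each library, 1 added to counts and the longest transcript. The code was tested on simulated counts.

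The cadherin genes and all gene lists were chosen with earlier results of these data known. Besides the cadherins, Rnf40 and Rnf20, genes named were up to 5 past the threshold with the largest change per list and the most abundant per kb, except that Schwann lineage markers are given as single genes without their list's summary. Others (among them Cdh7, Cdh9, Cdh12, Cdh15, Cdh18, Cdh22, Cdh24, Ctnnb1, Ctnnd1, Snai1, Snai2, Egr2 and markers at or near 0) were named after their values were seen. The labels call the libraries biological replicates, and pairs of libraries of a genotype differed by more than sampling noise (chi-square per degree of freedom 1.78 to 5.21).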

Additional observations from a re-analysis of the deposited data

How the results depend on the processing

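The 9 cadherins past the threshold kept their direction under every alternative that could test them, and 8 of them stayed past it. Cdh5 was the exception, with total-count scaling (log2 change -0.24, edgeR adjusted p = 0.0598). Cdh2 was past the threshold under none, with adjusted p from 0.0669 to 0.911. A minimum of 10 counts in every library left 6 of the 10 cadherins and 0 higher ones, because Cdh4, Cdh6, Cdh8 and Cdh10 each had a control library below that minimum, so that none of these could be tested there. DESeq2, with the main filter, called all 4. Cdh4, Cdh6 and Cdh8 passed that filter only through the Rnf40ΔSC libraries, so their calls are a description. Total-count scaling gave 3766 higher and 880 lower genes among all genes (TMM 1756 and 1841), and 1008 and 261 within the study limits (TMM 415 and 567), a split that follows from the shift of the median. It also turned the sign of Actn4, to 0.24 (adjusted p = 0.039).

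Leaving out each library in turn gave 4 higher and 5 lower cadherins throughout and between 2732 and 3907 genes in all past the threshold. The log2 difference of the Cdh2 to Cdh1 ratio ranged from 0.28 to 0.43. With 1 added to each count it was 0.34. The median log2 change of the cadherins regardless of sign was 0.64 over those at the filter's level in all 6 libraries, an alternative chosen after seeing the data. Replicate numbers did not pair the libraries: deviations of libraries with the same number correlated at -0.09, -0.02 and -0.06. With the replicate block 4 higher and 5 lower cadherins and 3564 genes in all were past the threshold, no call of a named gene changed, and the paired ratio difference was 0.34 (exact two-sided sign-flip test, p = 0.25, the smallest that 3 pairs allow). Of 71 other genes of the lists compared singly, 19 calls ended and 1 gene newly passed with total-count scaling, the signs of Actn4 (past the threshold after the turn) and Clstn1 (not past it) turned, and 7 calls ended with DESeq2. With lengths of the longest transcript, Cdh4, Cdh6, Cdh8 and Cdh10 held 3.28% ± 0.670 of the cadherin reads per kb in control and 16.8% ± 1.11 in Rnf40ΔSC nerves (SD, n = 3). Genes with a few reads per library, such as Cdh9 and Cdh24, could not be compared at this depth.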

Other observations

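Protocadherins and other members of the cadherin superfamily were represented by 29 genes, of which 16 could be tested, 2 were higher, 1 was lower and 13 did not pass (with total-count scaling 5 higher and 0 lower). Pcdh10 and Pcdh20, protocadherins of the nervous system, were the higher ones. Pcdh10 had 6.59, 6.22 and 11.2 CPM in control and 14.6, 24.4 and 21.9 CPM in Rnf40ΔSC libraries (log2 change 1.26, edgeR adjusted p = 0.000775), and Pcdh20 had 17.3, 15.8 and 12.5 CPM in control and 24.9, 48.1 and 32.3 CPM in Rnf40ΔSC libraries (log2 change 1.20, adjusted p = 0.000119). For each of them, all Rnf40ΔSC libraries were above all controls. Fat4, a large cadherin of planar polarity, fell by 0.47 on the log2 scale (adjusted p = 0.00914), which was not past the threshold with total-count scaling (adjusted p = 0.264), with DESeq2 (adjusted p = 0.0518) or without Rnf40ΔSC replicate 1 (adjusted p = 0.0641). The calsyntenin Clstn1, highest of the 29 per kb, changed by -0.20 (adjusted p = 0.0885), and was past the threshold without control replicate 1 (adjusted p = 0.0307) and without Rnf40ΔSC replicate 3 (adjusted p = 0.00798). With total-count scaling its sign turned, to 0.07 (adjusted p = 0.562).

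Of 7 perineurial markers, 1 was higher, 4 were lower (2 with total-count scaling), 1 did not pass and 1 was not tested, with a summed level of 902, 1037 and 1017 CPM in control and 579, 494 and 547 CPM in Rnf40ΔSC libraries and none at 0 in all libraries. Itgb4, an integrin chain that myelinating Schwann cells express as well, fell by 1.69 (edgeR adjusted p = 4.77e-16). Cldn3, the higher marker, had 1, 2 and 0 reads in control and 14, 10 and 12 in Rnf40ΔSC libraries (adjusted p = 0.000371) and passed the filter only through the latter. Cldn1, the highest of the list per kb, fell by 0.28 (adjusted p = 0.0334). The call of Cldn1 ended with total-count scaling, with DESeq2 and when control replicate 2 or 3 or Rnf40ΔSC replicate 2 or 3 was left out, with adjusted p up to 0.939. Of 10 macrophage markers, 6 were lower (2 with total-count scaling and 4 by DESeq2), 3 did not pass and 1 was not tested, with a summed level of 459, 402 and 433 CPM in control and 291, 290.0 and 307 CPM in Rnf40ΔSC libraries, none at 0 in all libraries, and the complement gene C1qb highest per kb (log2 change -0.44, adjusted p = 0.0145). The call of C1qb ended with total-count scaling (adjusted p = 0.356), with DESeq2, without control replicate 2 and without Rnf40ΔSC replicate 1, with adjusted p up to 0.356.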
